A study of Drosophila melanogaster with 6 samples.

Results

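The cytosolic ribosomal protein genes of the Drosophila pupal eye were compared between 40 and 21 h APF (hours after puparium formation). They are the genes whose symbol in the deposited table begins with RpL (proteins of the large, 60S subunit) or RpS (proteins of the small, 40S subunit), and 92 of the 17649 genes in the table meet this rule. Of these, 54 are RpL genes and 38 are RpS genes. The symbols of mitochondrial ribosomal proteins begin with mRpL or mRpS, so those genes are outside the rule, and so is sta, which encodes a small subunit protein under another name.

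Whole eyes were dissected from pupae of Canton S, a wild-type strain, at 40 h APF (3 libraries) and at 21 h APF (3 libraries). Each library came from a pool of eyes, so photoreceptors, cone cells, pigment cells and bristle cells were measured together. The authors deposited 1 FPKM per gene and stage (fragment counts scaled by transcript length and by library depth), pooled over the 3 libraries of that stage. No replicate values were analysed here, so no value below has an SD, an interval or a test, and a difference between stages is a description of these pooled libraries. The table holds no counts, and the number of fragments behind a value was not computed here. Ratios are log2((FPKM at 40 h + 0.1)/(FPKM at 21 h + 0.1)), so that a negative ratio means a lower level at 40 h.

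A ribosome holds 1 copy of nearly every ribosomal protein, on a scaffold of ribosomal RNA, and the acidic stalk proteins are the known exception. The genes are expressed in all cells that make protein, their promoters share a pyrimidine-rich initiator, and growth signals act on the transcription and translation of the whole set. In Drosophila, loss of a single copy of many of these genes gives the Minute phenotype of delayed growth and short, thin bristles. Some of the proteins are encoded by a pair of genes, of which the second copy is often restricted to the germ line.

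The markers of the labelled tissue were present at both stages, most of them at lower levels at 40 h. All 13 retinal genes of the list used here were at 1 FPKM or more, with a summed FPKM of 809 at 40 h and 1279 at 21 h. Of these 13, 11 were lower at 40 h, 5 of them at least 1.5-fold. The shares over all genes with at least 1 FPKM were 50.9% and 18.7%. The median log2 ratio of the 13 retinal genes was -0.57. They include gl, a zinc finger factor needed for photoreceptor development (132 FPKM at 40 h against 235 at 21 h), and elav, an RNA-binding protein of neurons and 1 of the 2 that were higher (89.6 FPKM at 40 h against 84.9 at 21 h). Of 8 glial genes, 6 were higher at 40 h, with a median log2 ratio of 0.74. The summed FPKM of the 8 was 397 at 40 h and 288 at 21 h. At least 1.5-fold higher were 4 of the 8, and 1 was at least 1.5-fold lower. The shares over all genes were 22.6% and 18.7%. The defining glial factor, repo, had 40.4 FPKM at 40 h against 40.5 at 21 h. By contrast, alrm had 23.2 FPKM at 40 h against 1.89 at 21 h, and gcm 0.114 FPKM at 40 h against 7.60 at 21 h. Of 9 fat body genes, 7 were lower at 40 h (median log2 ratio -0.72), while their summed FPKM was 122 at 40 h and 112 at 21 h, because Col4a1 alone had 57.6 FPKM at 40 h against 7.70 at 21 h. Of 10 muscle genes, 8 reached 1 FPKM, 4 of them lower and 4 higher at 40 h (median log2 ratio 0.73), and the summed FPKM of the 10 was 40.5 at 40 h and 79.1 at 21 h, of which sls had 21.7 at 40 h and 44.5 at 21 h. Of 10 hemocyte genes, 4 reached 1 FPKM, 2 of them lower and 2 higher, with a summed FPKM of 123 at 40 h and 78.8 at 21 h for the 10. One of the lower genes, lz, is also among the 13 retinal genes and counts in both lists. It had 26.3 FPKM at 40 h against 39.3 at 21 h. Among the other hemocyte genes, Pxn had 53.4 FPKM at 40 h against 1.92 at 21 h and crq 42.0 FPKM at 40 h against 31.2 at 21 h. The other lower gene, PPO2, had 0.0830 FPKM at 40 h against 4.79 at 21 h (log2 ratio -4.74). Hml was under 1 FPKM at both stages, and He was listed at 0 at both. The part of these cells in the ribosomal protein values was not tested. In whole eyes, a smaller number of cells with a high level and a lower level per cell cannot be told apart.

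As a set, the ribosomal protein genes took a smaller share of expression at 40 h. Their summed FPKM was 81111 of 562299 at 40 h, or 14.4% of the sum over all genes, against 93353 of 557572 at 21 h, or 16.7%. This is a difference of -2.32 percentage points. Weighted by exon length, which brings the values nearer to a share of sequenced fragments, the set took 5.61% at 40 h and 7.25% at 21 h. Of the 100 genes with the highest FPKM, 50 were ribosomal protein genes at 40 h and 57 were at 21 h.

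Levels formed 3 classes that were the same at both stages. In the largest class, 81 genes had more than 250 FPKM at 40 h and at 21 h. Their median was 912 FPKM at 40 h, with quartiles of 806 and 1131 FPKM, and 1085 FPKM at 21 h, with quartiles of 896 and 1389 FPKM. The highest of them was 8.48 times the lowest at 40 h and 8.43 times at 21 h. The order of these 81 genes was similar at the 2 stages, with a Spearman correlation of 0.93 across genes, which share the libraries. A further 4 genes lay between 25 and 110 FPKM at both stages, and 7 genes were under 2 FPKM at both. These 11 genes are all second copies or relatives of a gene in the largest class.

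The highest ribosomal protein gene at 40 h was RpL41, which encodes a peptide of 25 residues and had 2167 FPKM at 40 h against 2093 at 21 h. RpL40, a fusion of ubiquitin with a large subunit protein, followed with 2039 FPKM at 40 h against 2152 at 21 h. RpS3A (FBgn0017545, on chromosome 4 from 65225 to 67207 of BDGP6), the only one of the 92 genes on that small chromosome, was the highest at 21 h and had 1848 FPKM at 40 h against 2297 at 21 h. Other genes among the 10 highest at 40 h were RpL36, RpS27A, RpL31, RpL27, RpL37a, RpL15 and RpS29, with levels between 1861 FPKM for RpL36 and 1425 FPKM for RpS29. Of these 10 genes, 8 were also among the 10 highest at 21 h, where RpS7 and RpL14 stood in place of RpL37a and RpS29.

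**Figure D1:**
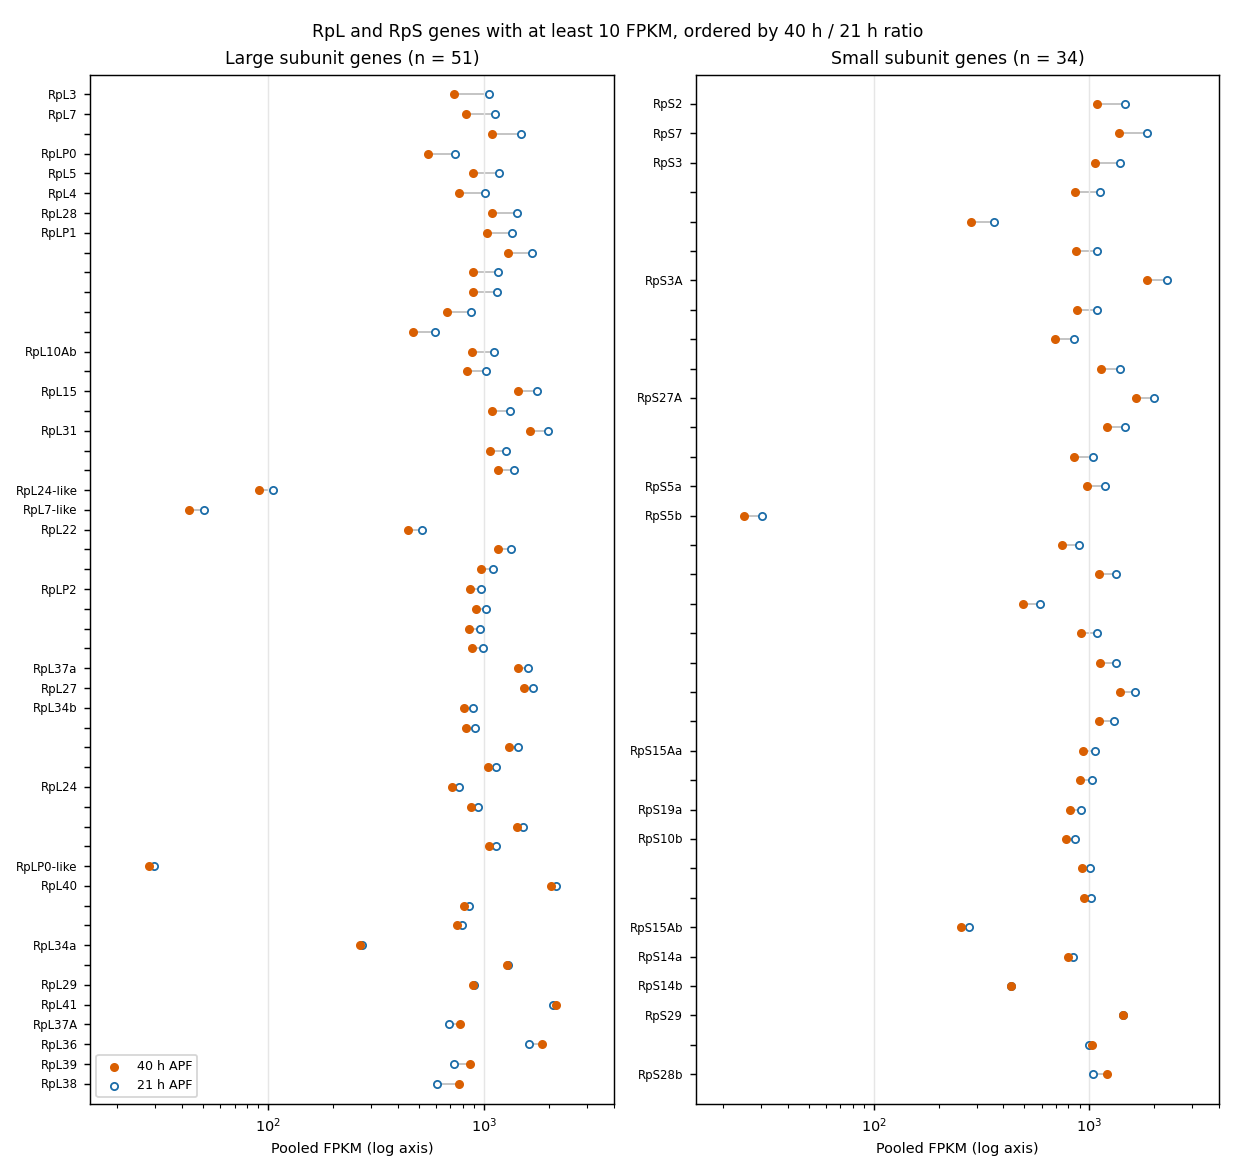
Pooled FPKM on a log axis at 40 h APF (filled orange circles) and 21 h APF (open blue circles) for each RpL gene (left, n = 51) and RpS gene (right, n = 34) with at least 10 FPKM, ordered down the page from the lowest to the highest ratio of 40 h over 21 h, with names on a part of the rows. The filled circle lies to the left of the open one in 78 of the 85 genes, and the genes near 100 FPKM and below are RpL24-like, RpL7-like, RpLP0-like and RpS5b.

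The difference between the stages was small in each gene and in one direction for most of them. Among the 85 ribosomal protein genes with at least 10 FPKM at the higher stage, 78 were lower at 40 h and 7 were higher. Among all 9828 genes with at least 1 FPKM, 50.9% were lower at 40 h. The median log2 ratio of the 85 genes was -0.22, a 40 h level of 0.858 times the 21 h level, and the median over all genes with at least 1 FPKM was -0.02. When the ratios were centred on that median, 74 of the 85 genes were lower and 11 were higher.

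The ratios of the ribosomal protein genes lay close together. Their interquartile range was 0.19 on the log2 scale, against 1.09 for the 1019 other genes with at least 100 FPKM. Among genes with at least 1 FPKM, the interquartile range was 0.18 for proteasome subunits, 0.27 for mitochondrial ribosomal proteins and 0.34 for initiation factors. The narrow spread was thus not particular to the cytosolic set. The ratios of the 85 genes ran from -0.53 for RpL3 to 0.35 for RpL38. None of the 85 genes was 1.5-fold lower or 1.5-fold higher at 40 h. Of all genes with at least 1 FPKM, 18.7% were at least 1.5-fold lower at 40 h and 22.6% were at least 1.5-fold higher. With a threshold of 1.2-fold, 34 of the 85 genes were lower and 1 was higher, where 34.5% of all genes were lower and 34.3% were higher. The share past 1.2-fold in the lower direction, 40.0%, was thus near that of all genes, while few ribosomal protein genes were found past it in the other direction.

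The genes with the lowest ratios came from both subunits. RpL3 (FBgn0020910, on chromosome 3R from 11221894 to 11225173), whose protein reaches the peptidyl transferase center, had 729 FPKM at 40 h against 1050.0 at 21 h, a log2 ratio of -0.53. An antisense RNA and a snoRNA overlap 21.0% of its exon bases. RpL7 followed with 829 FPKM at 40 h against 1124 at 21 h (log2 ratio -0.44), and RpS2, which lies where mRNA enters the small subunit, had 1085 FPKM at 40 h against 1468 at 21 h (log2 ratio -0.44). RpLP0, RpS7, RpL5, RpS3, RpL4 and RpL28 were also among the 10 genes of lowest ratio, between -0.43 for RpLP0 and -0.39 for RpL28.

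Grouped by where their proteins sit, in groups drawn up after the values were seen, 5 of 7 groups were lower at 40 h in all of their genes. Of the 85 genes as a whole, 78 were lower, and these groups are small, so the count says little about position. RpL5 and RpL11, which carry the 5S ribosomal RNA into the large subunit, had log2 ratios of -0.40 and -0.36. The 4 genes near the peptidyl transferase center, RpL3, RpL4, RpL8 and RpL10, had a median of -0.38, and the 4 genes at the mRNA entry, RpS2, RpS3, RpS9 and RpS30, had a median of -0.35. In RpS9, 50.3% of the exon bases are covered by an antisense RNA, and since the strand of the libraries is not given in the sources used here, reads of such pairs cannot be told apart. The median of the 85 genes was -0.22 and that of all genes with at least 1 FPKM was -0.02, as above.

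The stalk proteins recruit elongation factors to the ribosome. RpLP0, the base of the stalk, had 548 FPKM at 40 h against 738 at 21 h (log2 ratio -0.43), and RpLP1 had 1034 FPKM at 40 h against 1349.5 at 21 h (log2 ratio -0.38). RpLP2 differed less, with 858 FPKM at 40 h against 967 at 21 h (log2 ratio -0.17), and so did RpL12, which binds at the stalk base, with a log2 ratio of -0.16. All 4 were thus lower at 40 h, and the paired partners RpLP1 and RpLP2 had unequal ratios.

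Of the genes that encode a ribosomal protein fused to ubiquitin or a ubiquitin-like peptide, RpS27A had 1639 FPKM at 40 h against 1994 at 21 h (log2 ratio -0.28). RpS30 had a log2 ratio of -0.22 and RpL40 one of -0.08. The 7 genes whose proteins ring the exit of the nascent chain had a median of -0.20, and 6 of them were lower at 40 h. The exception, RpL39, is described below. Of the 14 genes of the small subunit head, 13 were lower at 40 h, and the ratios of the 14 ran from -0.39 for RpS3 to 0.21 for RpS28b.

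The 2 subunits overlapped widely in their ratios. The median was -0.17 for 51 large subunit genes and -0.26 for 34 small subunit genes with at least 10 FPKM, and 46 of the large subunit genes and 32 of the small subunit genes were lower at 40 h. Between chromosome arms, all 14 genes on 3L and all 19 on 3R were lower at 40 h, whereas 4 of the 19 genes on 2R, 2 of the 14 on X and 1 of the 18 on 2L were higher. In RpL5, RpL15 and RpL38, which lie in or next to the heterochromatin around the centromeres, the log2 ratios were -0.40, -0.30 and 0.35. These genes were picked as examples, without a set boundary. RpL21, which lies near RpL5 on 2L, had a log2 ratio of -0.10.

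Of the 7 genes that were higher at 40 h, 5 encode proteins of under 100 residues. RpL38 (FBgn0040007, on chromosome 2R from 4515388 to 4516458), which in mice affects the translation of Hox mRNAs, had 769 FPKM at 40 h against 604 at 21 h, a log2 ratio of 0.35. RpL39 (FBgn0023170, on chromosome 2R from 24061853 to 24062431), whose small protein lines the exit tunnel, had 863 FPKM at 40 h against 725 at 21 h (log2 ratio 0.25). RpS28b had 1205 FPKM at 40 h against 1038 at 21 h (log2 ratio 0.21), and RpL36 had 1861 FPKM at 40 h against 1621 at 21 h (log2 ratio 0.20). RpL37A had 771 FPKM at 40 h against 692 at 21 h (log2 ratio 0.16), and an antisense RNA covers 19.7% of its exon bases. The log2 ratio of RpL41 was 0.05.

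RpL39 stands tail to tail with RpL12, and the annotated ends of the 2 genes overlap by 8 bases. RpL12 had the lower level at the later stage, 917 FPKM at 40 h against 1027 at 21 h, so these neighbours had ratios of opposite sign. The next genes in the order of ratios were close to 0, namely RpS29, RpS14b, RpL29 and RpL32, all between -0.02 and -0.01, and these 4 are above the median of all genes and so count as higher after centring. RpL32, the gene also called rp49 that is widely used as a reference in quantitative PCR, had 1286 FPKM at 40 h against 1299 at 21 h; it falls outside the rule for named genes and was chosen after its value was seen.

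Protein length ran along with the ratio. Among the 85 genes, the Spearman correlation of the longest annotated protein with the log2 ratio was -0.56 across genes, with -0.66 over the 51 large subunit genes and -0.46 over the 34 small subunit genes. The 10 genes with under 100 residues had a median log2 ratio of 0.02 and 5 of them were higher at 40 h. The 49 genes with at least 100 and under 200 residues had a median of -0.16 and 47 were lower, and the 26 genes with 200 residues or more had a median of -0.30 and all 26 were lower. Exon length, which enters FPKM as a divisor, had a Spearman correlation of -0.39 with the ratio. These are correlations over genes of the same libraries, so the points are not independent, and the part of transcript length in them was not tested.

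Short proteins did not all share the pattern. RpS21, with 83 residues, had 282 FPKM at 40 h against 363 at 21 h (log2 ratio -0.36), and RpS27, with 84 residues, had 494 FPKM at 40 h against 590 at 21 h (log2 ratio -0.26). RpL37a, with 93 residues, had a log2 ratio of -0.16. RpL37a and RpL37A, in spite of their symbols, encode different ribosomal proteins. RpS21 and RpS27, like the members named only for their place in the ribosome, were chosen after their values were seen. Over the 949 other protein-coding genes with at least 100 FPKM, the Spearman correlation between protein length and the ratio was 0.02, but the shortest were also the highest by median: the 61 with under 100 residues had a median log2 ratio of 0.40, against 0.09 for the 555 with 300 residues or more. Among the mitochondrial ribosomal protein genes the median was 0.38 for 3 genes under 100 residues, 0.43 for 11 genes from there to under 150 and 0.25 for 16 genes of 300 residues or more. Higher ratios at short proteins were thus not particular to the cytosolic set.

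**Figure D2:**
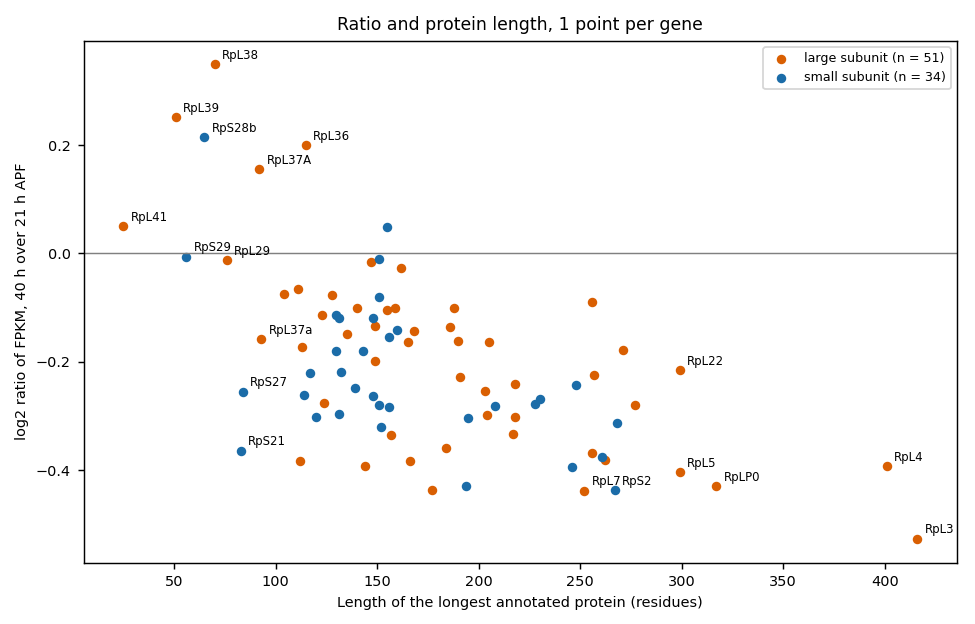
Log2 ratio of FPKM, 40 h over 21 h APF, against the length in residues of the longest annotated protein, for the 51 large subunit (orange) and 34 small subunit (blue) genes with at least 10 FPKM. Genes at 200 residues or more all lie below 0, down to RpL3 at -0.53, and 5 of the 10 genes under 100 residues lie above it, up to RpL38 at 0.35.

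Many of these genes carry small nucleolar RNAs (snoRNAs, guides for the modification of ribosomal RNA) in their introns. The annotation places 74 snoRNAs inside 28 of the 92 genes, 14 of them in RpS5a and 7 in RpS7. The 28 host genes had a median log2 ratio of -0.28 and 27 of them were lower at 40 h. The 57 genes with at least 10 FPKM and no snoRNA had a median of -0.17 and 51 were lower at 40 h. Of the 92 genes, 49 share their locus in the table with another gene of any kind, snoRNA or neighbour. Where genes at a locus overlap, reads can be assigned to either, and the part of this in the difference was not tested.

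The paralog families were then compared by level, per length of transcript. The table holds 13 families with 27 genes, and in 12 families the summed FPKM was lower at 40 h, with RpS28 as the exception. In each family the same gene was the more abundant at both stages. The share of the less abundant gene moved by at most 1.48 percentage points between the stages, in the RpL34 family. Reads of near-identical copies can be assigned to either gene, so the level of the second copy is uncertain where the sequences are close.

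In 3 families both copies were expressed at high levels. RpS14a and RpS14b lie 220 bases apart on the X chromosome and each encode 151 residues. RpS14a had 797 FPKM at 40 h against 843 at 21 h (log2 ratio -0.08), and RpS14b had 431 FPKM at 40 h against 434 at 21 h (log2 ratio -0.01), so that RpS14b made up 35.1% of the pair at 40 h and 34.0% at 21 h. RpL34a had 268 FPKM at 40 h against 273 at 21 h and made up 24.96% of its family at 40 h and 23.5% at 21 h, where RpL34b had 804 FPKM at 40 h against 889 at 21 h. RpS15Ab, a gene without introns, had 255 FPKM at 40 h against 276 at 21 h, which was 21.4% of its family at 40 h and 20.6% at 21 h. Its partner RpS15Aa had 938 FPKM at 40 h against 1063 at 21 h.

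The genes RpL24-like, RpL7-like and RpLP0-like are named for their likeness to a ribosomal protein. Their yeast counterparts are assembly factors of the pre-60S particle. Those of RpL24-like and RpLP0-like occupy the place of a ribosomal protein until late in maturation. RpL24-like had 90.4 FPKM at 40 h against 106 at 21 h (log2 ratio -0.23). RpL24 itself had 710 FPKM at 40 h against 763 at 21 h. RpL7-like had 43.03 FPKM at 40 h against 50.3 at 21 h (log2 ratio -0.22), and CG34164 covers 98.8% of its exon bases. RpLP0-like had 27.97 FPKM at 40 h against 29.8 at 21 h (log2 ratio -0.09). The ribosomal proteins that they resemble were 7.86 times, 19.3 times and 19.6 times as high at 40 h, in that order.

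RpS5b (FBgn0038277, on chromosome 3R from 14900432 to 14901563), known for its expression in the ovary, was the most abundant of the second copies with a germ line bias. It had 25.2 FPKM at 40 h against 30.4 at 21 h. Its partner RpS5a had 974 FPKM at 40 h against 1181 at 21 h. Its share of the pair was 2.53% at 40 h and 2.51% at 21 h, and the log2 ratios of the pair were alike, -0.27 for RpS5b and -0.28 for RpS5a.

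The other second copies were at or near 0. RpS19b (FBgn0039129, on chromosome 3R from 23932729 to 23933530), a germ line copy, had 0.0983 FPKM at 40 h against 1.92 at 21 h, and is the single gene of the set with at least 1 FPKM that was at least 1.5-fold lower at 40 h. Its log2 ratio was -3.35, and -1.41 with a pseudocount of 1 FPKM. Its partner RpS19a had 817 FPKM at 40 h against 910 at 21 h. RpS10a, which lies inside the locus of tau, had 0.486 FPKM at 40 h against 0.481 at 21 h, where RpS10b had 777 FPKM at 40 h against 857 at 21 h.

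RpL22-like, a paralog known from the male germ line, was listed at 0 at 40 h and had 0.152 FPKM at 21 h. The main gene RpL22 had 447 FPKM at 40 h against 519 at 21 h. RpS28-like was listed at 0 at 40 h and had 0.530 FPKM at 21 h, and RpS28a had 0.247 FPKM at 40 h and was listed at 0 at 21 h. RpL10Aa had 0.0384 FPKM at 40 h and was listed at 0 at 21 h, where RpL10Ab had 884 FPKM at 40 h against 1114 at 21 h. RpL37b was listed at 0 at both stages. At these levels no fold is given, since the number of fragments behind them was not computed here.

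Germ line markers were low in the same libraries. Of 16 germ line and gonad genes, 3 reached 1 FPKM at one of the stages, and the summed FPKM of the 16 was 25.9 at 40 h and 18.2 at 21 h. Among the defining genes of the germ line, vas had 0.0708 FPKM at 40 h against 0.223 at 21 h, and bam had 0.0394 FPKM at 40 h against 0.148 at 21 h. The testis gene can had 0.301 FPKM at 40 h against 1.86 at 21 h. The other genes that reached 1 FPKM were gcl and tj, which are also known from tissues outside the gonad. Both were higher at 40 h, gcl with 11.9 FPKM at 40 h against 10.4 at 21 h, and tj with 11.2 against 3.62. Genes of the list under 1 FPKM also differed in both directions, and Mst87F had 0.926 FPKM at 40 h against 0.185 at 21 h. The part of germ line cells in the values of the second copies was not tested.

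**Figure D3:**
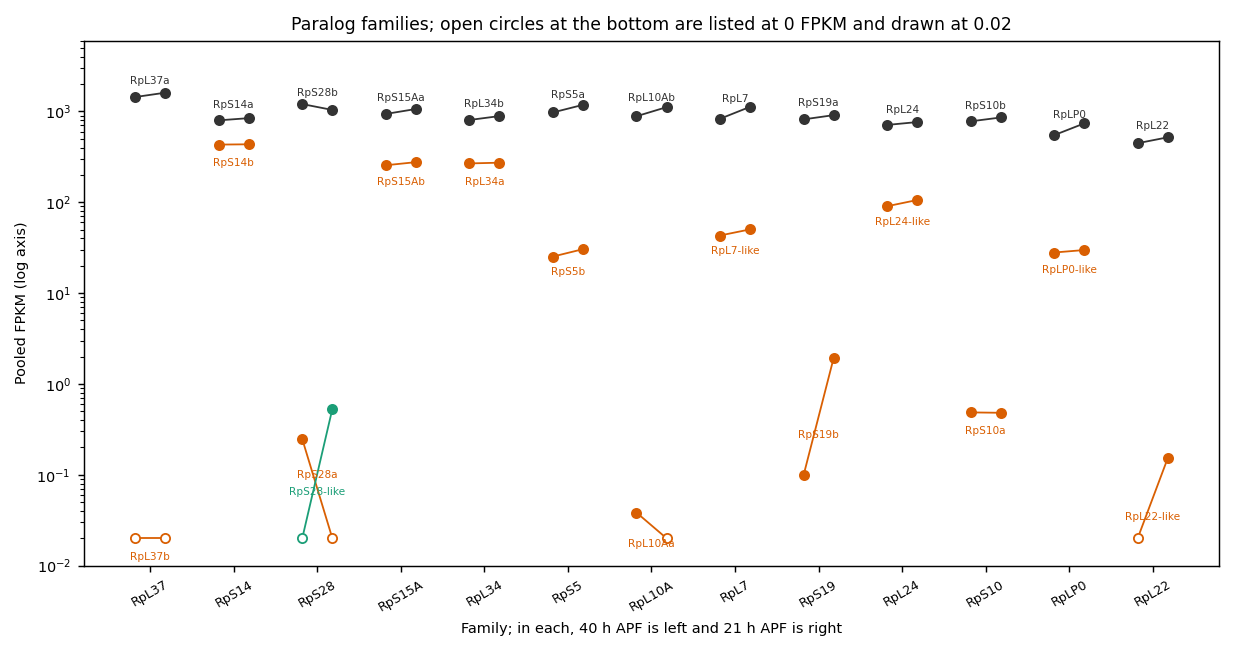
Pooled FPKM on a log axis of each paralog in 13 families, with 40 h APF at the left and 21 h APF at the right of each family; black marks the most abundant gene, orange and green the others, and open circles, drawn at 0.02 FPKM, stand for genes listed at 0. RpS14b, RpS15Ab and RpL34a lie above 250 FPKM, 4 genes lie between 25 and 110 FPKM, and the remaining 7 second copies lie under 2 FPKM.

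Other parts of the translation machinery were placed beside the ribosomal protein genes, each by its own values. The small subunit protein sta had 1242 FPKM at 40 h against 1736 at 21 h, and Rack1, a scaffold on the small subunit, had 870.4 FPKM at 40 h against 1215 at 21 h, both with a log2 ratio of -0.48. Of 9 genes for elongation and termination factors, 6 were lower at 40 h, with a median of -0.26. The highest of them was eEF1alpha1, which brings aminoacyl-tRNA to the ribosome, with 1524 FPKM at 40 h against 2611 at 21 h (log2 ratio -0.78). Its paralog eEF1alpha2 went the other way and had 813 FPKM at 40 h against 491 at 21 h (log2 ratio 0.73). Of the 9, these were the ones past 1.5-fold, 1 in each direction, which is below the shares of 18.7% lower and 22.6% higher over all genes, and eEF2, the translocase, had a log2 ratio of -0.54.

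Of 18 genes for ribosome assembly in the nucleolus, 15 were lower at 40 h, with a median log2 ratio of -0.36, and 3 were at least 1.5-fold lower and none 1.5-fold higher. The share past 1.5-fold in the lower direction, 3 of 18, was near the 18.7% of all genes. Non1, the highest of the 18 at 21 h, is a GTPase of the pre-60S particle and had 62.4 FPKM at 40 h against 108 at 21 h (log2 ratio -0.80), and Nop17l, the highest at 40 h, had 62.8 FPKM at 40 h against 51.5 at 21 h (log2 ratio 0.29). Of 7 genes for RNA polymerase I and its factor Tif-IA, 3 were lower and 4 higher at 40 h, with a median of 0.11. Only CG18600 was past 1.5-fold, with 18.2 FPKM at 40 h against 7.52 at 21 h (log2 ratio 1.27). Over all genes, 22.6% were at least 1.5-fold higher. Of 13 regulators linked to ribosomal protein genes, 10 were lower and none passed 1.5-fold in either direction. Their median log2 ratio was -0.17, and 50.9% of all genes with at least 1 FPKM were lower. The highest of the 13, crc, had 971 FPKM at 40 h against 834 at 21 h (log2 ratio 0.22). Myc had 29.3 FPKM at 40 h against 23.1 at 21 h (log2 ratio 0.34). Dref, which binds promoters of growth genes, had 20.3 FPKM at 40 h against 28.9 at 21 h (log2 ratio -0.51). Among 4 proteins that act on the nascent chain or whose mRNAs are regulated like those of ribosomal proteins, the log2 ratio was -0.55 for bic, -0.37 for Nacalpha, 0.04 for pAbp and 0.02 for Tctp.

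The mitochondrial ribosomal protein genes had ratios of the opposite sign. Of 73 mRpL and mRpS genes, 65 were higher at 40 h and 8 were lower, with a median log2 ratio of 0.24 and a range from -0.21 to 0.70. Their median level was 28.2 FPKM at 40 h against 23.3 at 21 h, against 893 FPKM at 40 h against 1082 at 21 h for the 85 cytosolic genes. The proteasome subunit genes with at least 1 FPKM, of which 34 of 36 were lower at 40 h, had a median of -0.46. The 35 initiation factor genes whose symbol begins with eIF had a median of -0.18, and 25 were lower. The cytosolic ribosomal protein genes thus lay between the mitochondrial ones and the proteasome, and near the initiation factors; these differences between gene groups were not tested, because the stages have 1 pooled value each.

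**Figure D4:**
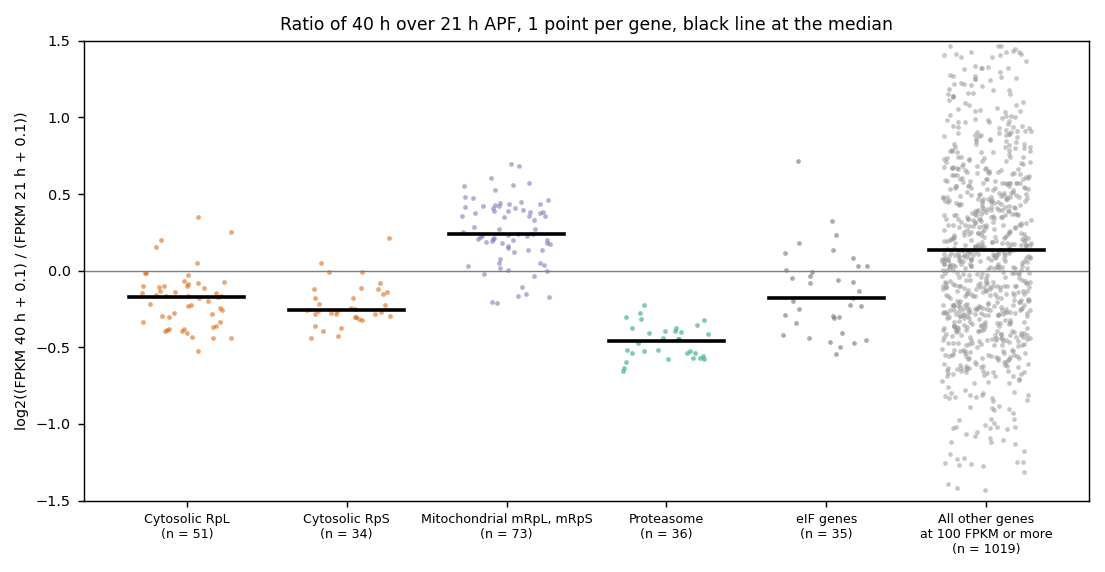
Log2 ratio of FPKM (+ 0.1), 40 h over 21 h APF, with 1 point per gene and a black line at the median, for the cytosolic RpL and RpS genes, the mitochondrial ribosomal protein genes, the proteasome, the eIF genes and all other genes with at least 100 FPKM. The medians are -0.17, -0.26, 0.24, -0.46, -0.18 and 0.14; 4 proteasome genes and 196 of the 1019 other genes lie outside the axis limits.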

How the data were processed

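Whole eyes of Canton S pupae were sequenced at 40 and 21 h APF, with 3 biological replicates per stage. The authors aligned 51-base paired reads to BDGP6 with bowtie2, an aligner without spliced alignment, and quantified the genes of Ensembl release 93 with Cuffdiff under geometric normalization and bias correction. FPKM values, deposited as 1 pooled value per gene and stage, were used as they stand. The 5 deposited comparison columns (log2 fold change, test statistic, p-value, q-value and significance mark) hold the authors' own test and were not used, so no adjusted p is given. Versions of the tools and the strandedness are not given in the sources used here.

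Members were matched to Ensembl release 115 of the same assembly for 1-based positions, exons and protein lengths, 91 by identifier and 1 (RpS12) by symbol. Genes were called past 1.5-fold with a pseudocount of 0.1 FPKM and a minimum of 1 FPKM in the stage with more. Only the ratio and the 1.5-fold call were checked, on known changes applied to the 21 h values. The members and lists were chosen with earlier results of these data known, and the groups by position in the ribosome after the values were seen. Named are all paralogs, the 10 highest members at 40 h, the 10 lowest and 10 highest ratios, stalk proteins, ubiquitin fusions, members under 1 FPKM and up to 3 genes of each list (any gene of a list of at most 6); other named genes were chosen after their values were seen. Some members that meet this rule are not reported here by name. Alternatives were other pseudocounts, scalings, minimums and thresholds, and leaving out paralogs or overlapping genes. Computation ran in Python 3.11.15 with pandas 2.3.3, numpy 2.4.6 and scipy 1.17.1, and plotting in matplotlib 3.10.9.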

Additional observations from a re-analysis of the deposited data

How the results depend on the processing

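The median log2 ratio of the 86 ribosomal protein genes with at least 1 FPKM, -0.22, stayed between -0.25 and -0.18 under the other pseudocounts, scalings, FPKM minimums and exclusions, of which leaving out the genes with under 100 residues, the snoRNA hosts or the 10 highest genes was chosen after seeing the data. The count of genes at least 1.5-fold lower, 1 (RpS19b), was 3 without an FPKM minimum, 0 with a minimum of 10 FPKM, 0 without the paralogs and 35 at a threshold of 1.2-fold. The count of genes at least 1.5-fold higher, 0, was 1 without a minimum (RpS28a, listed at 0 at 21 h) and 1 at 1.2-fold (RpL38). The genes' share of summed FPKM differed by -3.47 percentage points in place of -2.32 when the 15 genes that are among the 10 highest at either stage, none of them ribosomal, were left out of the sum. The median of the large subunit genes minus that of the small subunit genes, 0.088, was 0.048 without proteins under 100 residues. Of 199 values for 51 named genes, 6 moved by 0.1 or more, all in 5 genes under 2 FPKM at both stages. For RpS19b the log2 ratio was -4.29 without a pseudocount. The exclusion of genes whose 51-base windows occur elsewhere in the genome was not run, since no genome sequence was used. No paired analysis was possible because each stage has 1 pooled value. The table holds no counts, so levels under 2 FPKM are given without an interval.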

Other observations

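The noncoding hosts of snoRNAs, whose transcripts carry the same kind of intronic guides as many ribosomal protein genes, were low at both stages. Of 7 Uhg genes, 5 were lower at 40 h, with a median log2 ratio of -0.19. Uhg2 was the highest at 21 h, with 13.8 FPKM at 40 h against 23.1 at 21 h (log2 ratio -0.74). It was the single one of the 7 past 1.5-fold, where 18.7% of all genes with at least 1 FPKM were at least 1.5-fold lower. Uhg3 had the higher level at the later stage, 14.96 FPKM at 40 h against 12.2 at 21 h (log2 ratio 0.29). Uhg7 overlaps RpL23A, of whose exon bases 31.9% are shared with other genes, and had 1.65 FPKM at 40 h against 1.90 at 21 h.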
